A study of Rattus norvegicus with 11 samples.

Results

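Receptors for catecholamines, extracellular nucleotides and adenosine were followed in rat alveolar epithelial cells through 6 genes: the adrenergic receptor gene Adrb1, the nucleotide receptor genes P2ry2, P2rx4 and P2rx7, and the adenosine receptor genes Adora2a and Adora2b. They were chosen by name, as receptors that steer fluid clearance and surfactant release, and each was represented by 1 probe set annotated to that gene alone. They make up 6 of the 4736 genes and 6 of the 8740 probe sets measured. Total RNA was hybridised to 11 Affymetrix rat expression arrays. Of these, 3 held RNA of type II (TII) cells on day 7 of culture, 4 of freshly isolated type I (TI) cells on day 0, and 4 of freshly isolated TII cells on day 0. No genotype, strain, age, culture medium or drug treatment is given in the sources used here. Whether replicate arrays hold RNA of different animals is not stated either, and p-values therefore measure only the spread between these arrays, which may be technical. The groups follow the sample descriptions, since the source field names TI cells for every array.

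TI cells are the thin cells that cover most of the alveolar surface, and TII cells are the cuboidal cells that store surfactant in lamellar bodies. Catecholamines acting on beta-adrenergic receptors raise cyclic AMP, which speeds sodium and fluid uptake from the airspace and promotes surfactant release. Extracellular ATP acts on G protein-coupled P2Y receptors, which release calcium from stores, and on P2X receptors, which are cation channels that ATP opens. ATP is broken down outside the cell to adenosine, whose receptors of the Adora2 pair also raise cyclic AMP.

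The labelled cell types carried their markers, by the summed linear signal of each marker list. The 5 measured TI markers (Pdpn, Aqp5, Ager, Cav1 and Akap5) summed to 2009 to 2884 in cultured TII cells, 9394 to 10107 in fresh TI cells and 904 to 975 in fresh TII cells. The 5 measured TII markers (Sftpc, Sftpb, Sftpa1, Sftpd and Muc1) summed to 374 to 715, 2866 to 8889 and 23451 to 25103 in the same groups, so TII marker signal was present on fresh TI arrays and low in culture. Signal over probe sets had a standard deviation of 1.77 and 1.80 (log2) on fresh TI replicates 4 and 1, the lowest 2 of the 11 arrays; on the other 9 it was 1.84 to 1.97. Array medians differed less, between 5.43 and 5.51. The median probe set stood 0.12 higher in fresh TI than in fresh TII cells, 0.01 lower in cultured than in fresh TII cells and 0.13 lower in cultured TII than in fresh TI cells, and small differences are to be read against those shifts.

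P2ry2 and Adora2b had their highest signal in fresh TII cells and were lower both in fresh TI cells and after culture. P2rx4 was lower and Adora2a higher in fresh TI than in fresh TII cells, by amounts that were small and hung on single arrays. Adrb1 and P2rx7 passed the test in none of the 3 comparisons. In fresh TI minus fresh TII, 3 of the 6 probe sets were lower (20.4% of all probe sets were) and 1 was higher (34.3% were). After culture, set against fresh TII cells, 2 were lower (14.3% of all) and 0 higher (19.1% of all). Set against fresh TI cells, cultured TII cells had 1 lower (35.7% of all) and 1 higher (24.2% of all probe sets). The arrays of the groups did not overlap for 3 of the 6 in the first comparison (50.7% of all probe sets), 2 in the second (43.3%) and 1 in the third (57.3%). Every call is from limma's moderated test at an adjusted p under 0.05, with p-values adjusted by the Benjamini-Hochberg method over all 8740 probe sets, and each difference is given with its standard error (SE). In bulk RNA, fewer cells of a type and less RNA per cell cannot be told apart.

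**Figure D1:**
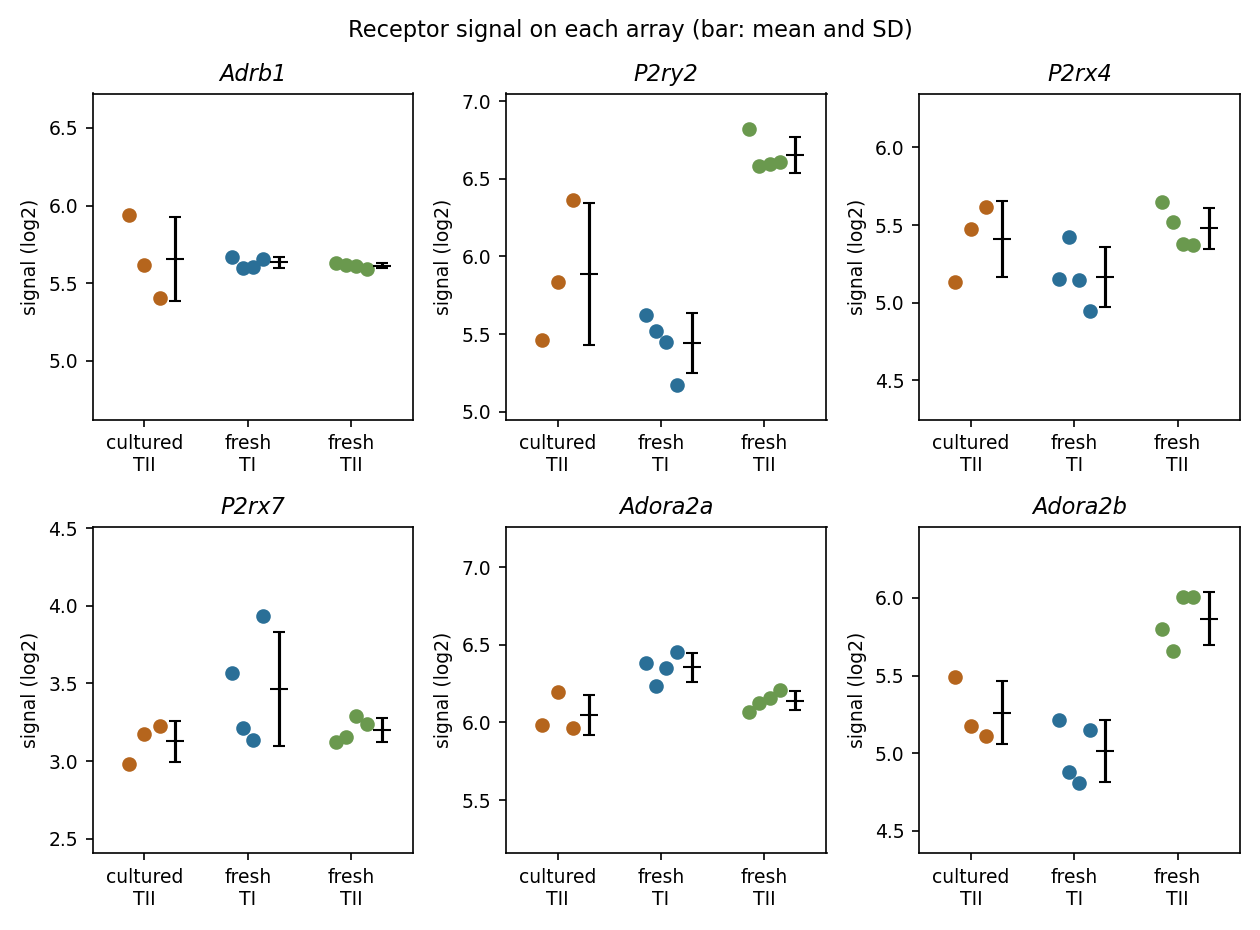
Signal of each receptor gene (y axis, log2, the same span of 2.1 in every panel) on each array of cultured TII (n = 3), fresh TI (n = 4) and fresh TII cells (n = 4); dots are arrays, and the bar beside them is the mean with its SD. For P2ry2 and Adora2b all 4 fresh TII arrays lie above the other 7, and the spread in culture is wide for P2ry2 and Adrb1.

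P2ry2 encodes a receptor for ATP and UTP that couples to phospholipase C and is a known trigger of surfactant secretion from TII cells. Its signal was 5.46, 5.83 and 6.37 (log2) on the 3 cultured TII arrays, 5.62, 5.52, 5.45 and 5.17 on the 4 fresh TI arrays, and 6.82, 6.58, 6.59 and 6.61 on the 4 fresh TII arrays. Every fresh TII array was above every array of the other groups, while the cultured and fresh TI arrays overlapped. Group means were 5.89 ± 0.45 in culture (SD, n = 3), 5.44 ± 0.19 in fresh TI cells (n = 4) and 6.65 ± 0.12 in fresh TII cells (n = 4). Fresh TI minus fresh TII was -1.21 ± 0.16 (SE; 2.31-fold lower; limma adjusted p = 5.17e-05), a size that 94.4% of probe sets did not reach. Cultured minus fresh TII was -0.76 ± 0.17 (1.70-fold lower; limma adjusted p = 0.00348). Both differences passed the test with any 1 array left out and under each scaling tried.

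Cultured TII cells stood between the fresh groups for P2ry2, but that order rested on few arrays. Cultured TII minus fresh TI was 0.45 ± 0.17 (limma adjusted p = 0.0403), and the adjusted p became 0.0708 without cultured TII replicate 2, 0.220 without cultured TII replicate 3, 0.0617 without fresh TI replicate 3 and 0.0980 without fresh TI replicate 4. Without cultured TII replicate 3, the brightest of the cultured arrays, the difference was 0.21. With only the arrays of these groups in the fit, the adjusted p was 0.0825, and on fresh TI replicates 2 and 3 alone the difference was 0.40 (adjusted p = 0.124).

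Adora2b encodes an adenosine receptor that couples to the stimulatory G protein and responds to high adenosine. Its signal was 5.49, 5.17 and 5.11 on the cultured TII arrays, 5.21, 4.88, 4.81 and 5.15 on the fresh TI arrays, and 5.80, 5.66, 6.006 and 6.004 on the fresh TII arrays. As for P2ry2, no cultured or fresh TI array reached the lowest fresh TII array. Fresh TI cells averaged 5.01 ± 0.20 and fresh TII cells 5.87 ± 0.17 (SD, n = 4 each), a difference of -0.85 ± 0.12 (SE; 1.81-fold lower; limma adjusted p = 8.62e-05). Cultured cells averaged 5.26 ± 0.20 (SD, n = 3), which put them -0.61 ± 0.13 from fresh TII cells (1.52-fold lower; limma adjusted p = 0.00236). Between cultured TII and fresh TI cells the difference of 0.25 ± 0.13 did not pass (limma adjusted p = 0.113; 95% interval -0.03 to 0.53). After quantile normalization it was 0.32 with an adjusted p of 0.0439, and with the array spreads matched it was 0.32 with an adjusted p of 0.0463. On fresh TI replicates 2 and 3 alone it was 0.42, with an adjusted p of 0.0246, and without cultured TII replicate 1 it was 0.13, with an adjusted p of 0.417.

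Summed TII marker signal was also lower in both groups in which P2ry2 and Adora2b were lower, as given above, and its part in these differences was not tested. Controls of RNA quality compare probe sets at the ends of a transcript. For beta-actin, the 3' probe set minus the 5' one gave -0.33 to -0.08 on cultured TII, 0.21 to 0.43 on fresh TI and 0.32 to 0.43 on fresh TII arrays. For GAPDH the same difference was 0.30 to 0.45, 0.41 to 0.69 and 0.47 to 0.57. The cultured arrays thus stood apart from fresh TII arrays for both controls. From fresh TI arrays they stood apart for beta-actin but not for GAPDH. The part of RNA quality in the differences with culture was not tested.

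Promoter sequence is shown for P2ry2 and Adora2b because these genes were lower in the same groups. Each sequence is the 250 bases before the gene's start in RefSeq (build GRCr8), 5' to 3' on the gene's strand. Capitals mark the GC box GGGCGG and the CCAAT box, each searched on both strands; adjoining or overlapping matches run together.
P2ry2, chr1:164779489-164779738, minus strand: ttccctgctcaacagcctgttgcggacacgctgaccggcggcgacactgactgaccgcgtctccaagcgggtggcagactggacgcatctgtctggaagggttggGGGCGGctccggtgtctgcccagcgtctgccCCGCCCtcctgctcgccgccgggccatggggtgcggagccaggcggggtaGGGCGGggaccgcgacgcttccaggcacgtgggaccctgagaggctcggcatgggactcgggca
Adora2b, chr10:47439462-47439711, plus strand: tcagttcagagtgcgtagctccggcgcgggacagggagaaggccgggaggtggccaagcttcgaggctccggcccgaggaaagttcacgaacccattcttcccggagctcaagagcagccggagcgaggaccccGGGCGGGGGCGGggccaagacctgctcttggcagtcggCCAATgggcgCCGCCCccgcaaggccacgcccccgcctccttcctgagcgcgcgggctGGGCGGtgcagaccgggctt

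The P2ry2 window held 3 GC boxes and the Adora2b window 4, and 30.5% of the 33469 promoter windows of the table hold at least 1. Adora2b also had 1 CCAAT box, which 34.0% of the windows hold, and P2ry2 had none. Neither held the TATA box TATAAA (12.9% of windows) or the full cyclic AMP response element TGACGTCA (1.6% of windows), on either strand. Both windows were 71.2% G and C, against a median of 51.2%, and the Adrb1 window was as rich, at 72.0%, with P2rx4 at 64.0% and P2rx7 at 56.0%. Among the members whose signal did not follow this pattern, the P2rx7 window held 2 GC boxes, the Adrb1 window 1 CCAAT box and 0 GC boxes, and the P2rx4 window 0 of either. Adora2a is without an entry in the table. Shared letters are a description of the windows, and no factor's binding was measured.

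**Figure D2:**
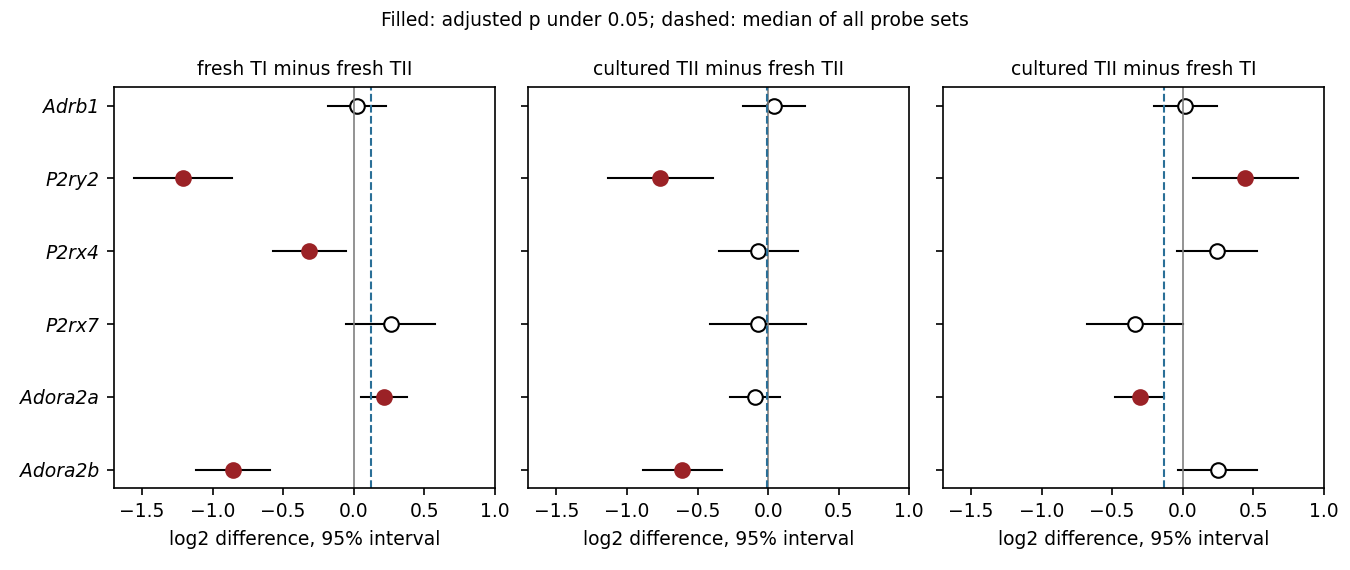
Log2 difference of each receptor gene (dots) with its 95% interval (lines) in the 3 comparisons named above the panels; filled dots have a limma adjusted p under 0.05 and the dashed line is the median of all 8740 probe sets. P2ry2 and Adora2b lie at -1.21 and -0.85 in fresh TI minus fresh TII and at -0.76 and -0.61 in cultured minus fresh TII.

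P2rx4 encodes an ATP-gated cation channel found on lamellar bodies of rat TII cells, where it lets calcium in once the lamellar body has fused with the surface. Signal was 5.14, 5.48 and 5.61 on the cultured TII arrays, 5.15, 5.42, 5.14 and 4.95 on the fresh TI arrays, and 5.65, 5.52, 5.38 and 5.38 on the fresh TII arrays. Fresh TI replicate 2 lay among the fresh TII values, and the cultured arrays spanned most of both ranges. Fresh TI minus fresh TII was -0.31 ± 0.12 (1.24-fold lower; limma adjusted p = 0.0419). That call ended without fresh TI replicate 1, 3 or 4 and without fresh TII replicate 1 or 2, with adjusted p of 0.0729 to 0.120, and on fresh TI replicates 2 and 3 alone the difference was -0.20 (adjusted p = 0.276). Cultured minus fresh TII was -0.07 ± 0.13, with a 95% interval of -0.35 to 0.21 (limma adjusted p = 0.757). Cultured TII minus fresh TI was 0.24 ± 0.13, with an interval of -0.04 to 0.52 (limma adjusted p = 0.119), and its adjusted p became 0.0245 without cultured TII replicate 1 and 0.0374 without fresh TI replicate 2. The difference was 0.14 without cultured TII replicate 3 (adjusted p = 0.403) and 0.13 on fresh TI replicates 2 and 3 alone (adjusted p = 0.491).

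P2rx7 encodes another ATP-gated channel, used as a TI cell marker in rodent lung. Its probe set was dim, at the 11.9th to 13.6th percentile of group means over all probe sets. Values were 2.98, 3.18 and 3.23 on the cultured TII arrays, 3.57, 3.22, 3.14 and 3.94 on the fresh TI arrays, and 3.12, 3.15, 3.29 and 3.24 on the fresh TII arrays. Only fresh TI replicates 1 and 4 stood above all cultured and fresh TII arrays. Fresh TI minus fresh TII was 0.26 ± 0.15 (limma adjusted p = 0.138; 95% interval -0.05 to 0.58), and 0.37 with an adjusted p of 0.0408 without fresh TI replicate 3 but 0.11 with an adjusted p of 0.419 without fresh TI replicate 4. On fresh TI replicates 2 and 3 alone it was -0.03 (adjusted p = 0.833). Cultured minus fresh TII was -0.07 ± 0.16 (limma adjusted p = 0.792; interval -0.41 to 0.27). Cultured TII minus fresh TI was -0.34 ± 0.16 (limma adjusted p = 0.0793; interval -0.68 to 0.003), with an adjusted p of 0.0383 without fresh TI replicate 2 and 0.0229 without fresh TI replicate 3. It was -0.18 without fresh TI replicate 4 (adjusted p = 0.188) and -0.05 on fresh TI replicates 2 and 3 alone (adjusted p = 0.679).

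Summed marker signal on the fresh TI arrays differed from list to list beside the P2rx7 values. Fresh TI replicates 1 and 4 had summed endothelial marker signal of 880 and 976, against 779 and 815 on replicates 2 and 3, and summed macrophage marker signal of 632 and 679, against 610 and 602. TII marker signal ran the other way, at 5688 and 2866 on replicates 1 and 4, against 8439 and 8889 on replicates 2 and 3. TI marker signal was 9394 and 10000 on replicates 1 and 4, and 9520 and 10107 on replicates 2 and 3. Leukocyte marker signal was 761, 744, 765 and 720 on replicates 1 to 4 and fibroblast marker signal 2855, 4036, 2507 and 2265, both lowest on replicate 4, where P2rx7 was highest. Replicates 1 and 4 are also the arrays with the lowest spread of signal over probe sets. The part of any of these in the P2rx7 signal was not tested. P2rx4 and P2rx7 are next to each other among the protein-coding genes of rat chromosome 12 in RefSeq.

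Adora2a encodes an adenosine receptor that couples to the stimulatory G protein and is best known from leukocytes, vessels and brain. Its signal was 5.99, 6.20 and 5.96 on the cultured TII arrays, 6.38, 6.23, 6.35 and 6.45 on the fresh TI arrays, and 6.07, 6.12, 6.16 and 6.21 on the fresh TII arrays. All 4 fresh TI arrays were above the other 7, by as little as 0.02 between the nearest arrays of fresh TI and fresh TII cells. Fresh TI minus fresh TII was 0.21 ± 0.07 (1.16-fold higher; limma adjusted p = 0.0290), or 0.09 above the median probe set. Centring each array on its median gave 0.17 with an adjusted p of 0.0594. Leaving out fresh TI replicate 1 or 4, or fresh TII replicate 1 or 2, gave 0.18 to 0.21 with adjusted p of 0.0627 to 0.0796, and fresh TI replicates 2 and 3 alone gave 0.15 (adjusted p = 0.173). Cultured TII minus fresh TI was -0.31 ± 0.08 (1.24-fold lower; limma adjusted p = 0.00631), which passed with any 1 array left out. Cultured minus fresh TII was -0.09 ± 0.08 (limma adjusted p = 0.457; 95% interval -0.27 to 0.08).

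Marker lists of other cells gave mixed results. Summed macrophage marker signal (8 of 17 listed genes measured) was 542 to 691 in cultured TII, 602 to 679 in fresh TI and 533 to 583 in fresh TII cells. Lymphocyte, neutrophil and mast cell markers (19 of 28) summed to 574 to 768, 720 to 765 and 581 to 623, and endothelial markers (10 of 17) to 882 to 889, 779 to 976 and 744 to 816. Fibroblast and smooth muscle markers (16 of 16) summed to 3925 to 4878, 2265 to 4036 and 1151 to 1502. No marker was listed at 0: the lowest group mean of a marker probe set was 1.76 (log2). In fresh TI minus fresh TII, 3 macrophage markers were higher and 1 lower, 10 of the leukocyte list were higher and 0 lower, 6 endothelial markers were higher and 1 lower, and 9 of the fibroblast list were higher and 0 lower, where 33.0% of all genes were higher and 21.2% lower. On fresh TI replicates 2 and 3 alone, 3 endothelial markers were higher and 1 lower. In cultured TII minus fresh TI, 25.8% of all genes were higher and 34.2% lower. There, 3 macrophage markers were higher and 3 lower, and 1 and 11 of the leukocyte list. The counts were 1 and 7 for endothelial markers and 6 and 5 for fibroblast markers. Their part in the Adora2a and P2rx7 differences was not tested.

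Adrb1 encodes the beta-1 adrenergic receptor, which couples to the stimulatory G protein and is known above all from the heart. Signal was 5.94, 5.62 and 5.40 on the cultured TII arrays, 5.67, 5.60, 5.61 and 5.66 on the fresh TI arrays, and 5.63, 5.62, 5.61 and 5.59 on the fresh TII arrays. The 8 fresh arrays lay within 0.08 of each other, while the 3 cultured arrays spanned 0.54. Differences were 0.02 ± 0.09 for fresh TI minus fresh TII (limma adjusted p = 0.853; 95% interval -0.18 to 0.23), 0.04 ± 0.10 for cultured minus fresh TII (0.824; -0.18 to 0.26) and 0.02 ± 0.10 for cultured TII minus fresh TI (0.874; -0.20 to 0.24). The sign of the first turned with the scaling. Without cultured TII replicate 1, the comparisons with culture gave -0.10 against fresh TII and -0.12 against fresh TI.

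**Figure D3:**
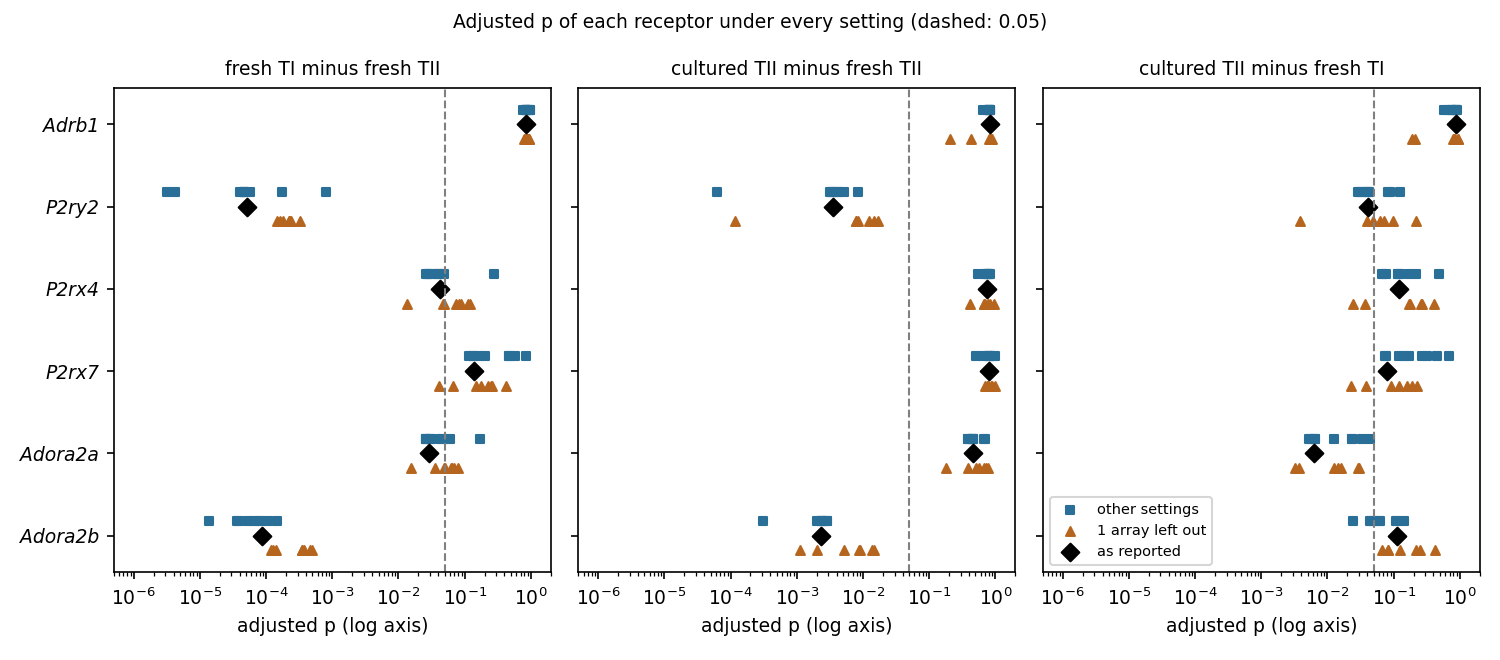
Adjusted p of each receptor gene (x axis, log scale) in the 3 comparisons, as reported (diamonds), under other scalings, filters or models (squares) and with 1 array left out (triangles); the dashed line is 0.05. P2ry2 and Adora2b stay left of the line in both comparisons with fresh TII cells, while P2rx4 and Adora2a in fresh TI minus fresh TII have points on both sides.

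Profiles over the 11 arrays were compared by the root mean square (RMS) difference between log2 values after each probe set's own mean was subtracted. P2ry2 itself varied by 0.57 (RMS) about its mean. The closest genes to it were Por, the electron donor of microsomal cytochromes P450, at 0.11, the antigen-loading gene RT1-DMb at 0.12 and the pseudokinase Trib3 at 0.16, against a median of 0.65 over 7005 probe sets. Por had a mean of 7.76 in cultured TII, 7.40 in fresh TI and 8.54 in fresh TII cells. Adora2b varied by 0.41, and the closest genes were the kinase Slk at 0.13, the epithelial transcription factor Ehf at 0.14 and the splicing factor Tra2b at 0.15, against a median of 0.49. Ehf had means of 4.72 in cultured TII, 4.43 in fresh TI and 5.46 in fresh TII cells. Adora2a varied by 0.15, with Sstr3, Spop and Vps33a closest at 0.04 to 0.05, against a median of 0.20. P2rx4 varied by 0.21, with Lmnb1, Smad4 and Ap1b1 closest at 0.11, against a median of 0.34.

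Among the other purine receptors, 8 of 11 measured genes were higher in fresh TI than in fresh TII cells and 0 lower, with a list median of 0.34 against 0.11 for all 4736 genes, of which 33.0% were higher and 21.2% lower. The count was 4 higher and 0 lower after quantile normalization, 7 and 1 after median centring and 4 and 0 with matched spread. The ATP-gated channel genes P2rx3, P2rx1 and P2rx2 were higher by 0.54 ± 0.08, 0.49 ± 0.10 and 0.39 ± 0.10 (limma adjusted p = 9.97e-05, 0.00201 and 0.00768), with 4 of 5 other P2rx2 probe sets also called, at 0.29 to 0.31. P2rx3 had 4.86 to 5.08 in cultured TII, 5.44 to 5.56 in fresh TI and 4.81 to 5.09 in fresh TII cells, so fresh TI arrays stood apart from both TII groups. In cultured TII minus fresh TI, 9 of the 11 were lower and 0 higher (list median -0.34; all genes 34.2% lower, 25.8% higher, median -0.11), or 5 to 7 lower and 0 higher under the 3 scalings. Both comparisons share the fresh TI arrays.

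P2ry6, a receptor for UDP, moved in culture against P2ry2, its direct neighbour among protein-coding genes on rat chromosome 1 in RefSeq. Its signal was 4.16 to 4.73 in cultured TII, 4.04 to 4.60 in fresh TI and 3.86 to 4.02 in fresh TII cells, with no overlap between fresh TII and either other group. Cultured minus fresh TII was 0.57 ± 0.14 (limma adjusted p = 0.00654) and fresh TI minus fresh TII was 0.38 ± 0.13 (limma adjusted p = 0.0272). Of the 11 other purine receptors, 1 was higher and 2 lower in cultured than in fresh TII cells, with a list median of -0.04 (all 4736 genes: 972 higher, 665 lower, median -0.01). The lower ones were P2rx6 at -0.35 ± 0.10 and P2rx5 at -0.29 ± 0.10 (limma adjusted p = 0.0159 and 0.0343).

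Of 7 other adrenergic receptors, 3 were higher and 1 lower in fresh TI than in fresh TII cells (33.0% and 21.2% of all genes). In cultured minus fresh TII, 0 were higher and 1 lower, beside 972 and 665 of all 4736 genes. The list medians in these comparisons were 0.13 and -0.03. The lower one was the same gene in both: Adra1b, the alpha-1B receptor, which couples to phospholipase C. It had 5.01 to 5.16 in cultured TII, 5.20 to 5.38 in fresh TI and 5.79 to 6.08 in fresh TII cells. It was lower by -0.61 ± 0.08 in fresh TI cells and by -0.80 ± 0.09 in culture (limma adjusted p = 5.03e-05 and 8.25e-06). Adra1a, Adrb3 and Adra2b were higher in fresh TI than in fresh TII cells by 0.40 ± 0.09, 0.38 ± 0.10 and 0.25 ± 0.07 (limma adjusted p = 0.00367, 0.00766 and 0.00847). On fresh TI replicates 2 and 3 alone, 1 of the 7 was higher and 1 lower. After quantile normalization 5 were higher and 1 lower (median 0.29), and with matched spread 4 and 1 (median 0.23). Cultured TII cells had 0 higher and 3 lower than fresh TI cells (median -0.19), the same 3 genes, beside 25.8% and 34.2% of all genes. After quantile normalization 5 were lower, with matched spread 4, and on fresh TI replicates 2 and 3 alone 0.

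Enzymes and carriers that turn over nucleotides and adenosine split in both directions. Of 25 listed genes, 14 were measured. In fresh TI minus fresh TII, 7 were higher and 5 lower (33.0% and 21.2% of all genes), with a median of 0.22. The ectonucleotide pyrophosphatase genes Enpp3 and Enpp2 differed by -2.19 ± 0.35 and -2.02 ± 0.17, the adenosine kinase gene Adk by -0.79 ± 0.10 and the S-adenosylhomocysteine hydrolase gene Ahcy by -0.94 ± 0.13 (limma adjusted p of 1.10e-06 to 0.000232). Enpp2, also the source of lysophosphatidic acid, was at 6.01 to 6.56 in cultured TII, 5.98 to 6.87 in fresh TI and 8.28 to 8.67 in fresh TII cells. In culture 4 were higher and 4 lower than in fresh TII cells (median -0.07), beside 972 and 665 of all 4736 genes. Enpp2 fell by 2.22 ± 0.19 and Adk by 0.75 ± 0.11, while Enpp1 rose by 1.12 ± 0.16. Dpp4, a peptidase that binds adenosine deaminase in humans, fell by 1.63 ± 0.28 (limma adjusted p of 8.91e-07 to 0.000508 for these genes). Against fresh TI cells, 4 were higher and 5 lower in culture (median -0.18), beside 25.8% and 34.2% of all genes.

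Of 27 listed G protein subunits, 18 were measured. Among these, 6 were higher and 2 lower in fresh TI than in fresh TII cells (median 0.19), beside 33.0% and 21.2% of all genes. The count was 9 and 3 after quantile normalization (median 0.28) and 8 and 3 with matched spread (median 0.22). Gnas, the stimulatory alpha subunit through which Adrb1, Adora2a and Adora2b signal, was at 11.37 to 11.51 in cultured TII, 10.52 to 10.77 in fresh TI and 11.09 to 11.33 in fresh TII cells. Fresh TI minus fresh TII was -0.60 ± 0.08 (limma adjusted p = 4.08e-05), and the 3 other Gnas probe sets gave -0.18 to -0.56, all called. Cultured TII minus fresh TI was 0.82 ± 0.08 (limma adjusted p = 5.40e-06), with 0.54 and 0.81 on 2 others and -0.16, not called, on the dimmest. Culture had 5 of 18 higher and 1 lower than fresh TII cells (median 0.13), beside 972 and 665 of all 4736 genes. Gng5 differed by 1.22 ± 0.15 and Gnb2 by 0.77 ± 0.10 (limma adjusted p = 2.48e-05 and 6.09e-05). Another Gng5 probe set, at 0.09, was not called. Against fresh TI cells, 4 were higher and 5 lower in culture (median -0.003), beside 25.8% and 34.2% of all genes.

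The cyclic AMP arm had 34 measured genes of 44 listed. In fresh TI cells, 12 were higher and 9 lower than in fresh TII cells (median 0.15), near the 33.0% and 21.2% of all genes. Under the 3 scalings 9 or 10 were higher and 9 lower, and on fresh TI replicates 2 and 3 alone 8 and 9. Akap5, which anchors protein kinase A and stands on the TI marker list too, was at 5.82 to 6.63 in cultured TII, 6.50 to 7.47 in fresh TI and 3.62 to 3.81 in fresh TII cells. The phosphodiesterase gene Pde7a differed by -1.04 ± 0.08 and the catalytic subunit gene Prkacb by -0.88 ± 0.11 (limma adjusted p = 2.69e-07 and 3.25e-05), although another Prkacb probe set, at 0.07, was not called. In culture, 4 were higher and 5 lower than in fresh TII cells (median -0.04), beside 972 and 665 of all 4736 genes. Pkib, an inhibitor of protein kinase A, was at 6.41 to 6.56 in cultured TII, 2.89 to 3.66 in fresh TI and 3.67 to 4.20 in fresh TII cells. That was 2.48 ± 0.17 above fresh TII and 3.20 ± 0.17 above fresh TI cells (limma adjusted p = 1.32e-07 and 1.75e-08), the greatest difference of any called gene of the 7 pathway lists in culture against either fresh group. The cyclic AMP-regulated exchange factor gene Rapgef3 fell by 0.64 ± 0.07 and the regulatory subunit gene Prkar1a rose by 0.63 ± 0.09 from fresh TII cells. Against fresh TI cells, 6 were higher and 16 lower in culture (median -0.19), beside 25.8% and 34.2% of all genes. Under the 3 scalings, 10 to 12 were lower.

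P2ry2 and Adra1b act through only part of the calcium arm as listed here. In that arm, 27 of 35 listed genes were measured. Of these, 9 were higher and 6 lower in fresh TI than in fresh TII cells (median 0.13). These counts were near the shares of all genes, 33.0% and 21.2%. The list median was 0.035 after quantile normalization and 0.017 with matched spread, against 0.07 and 0.05 for all genes. Plcg2, a phospholipase C of the tyrosine kinase-linked type, was at 4.88 to 4.95 in cultured TII, 5.34 to 5.59 in fresh TI and 6.08 to 6.25 in fresh TII cells. The protein kinase C gene Prkcd was higher by 0.88 ± 0.08 in fresh TI cells (limma adjusted p = 2.08e-06), and by 1.20 on its other probe set. Camk2d differed by -1.46 ± 0.14 (limma adjusted p = 3.15e-06), but its other 5 probe sets lay between -0.22 and 0.34, with 2 called higher. In culture, 4 were higher and 6 lower than in fresh TII cells (median -0.07), beside 972 and 665 of all 4736 genes. Plcg2 differed by -1.23 ± 0.08 and Plcg1 by -0.71 ± 0.09. The calcium release channel gene Itpr2 differed by -0.78 ± 0.14 (limma adjusted p of 5.03e-08 to 0.000728 for these genes). Against fresh TI cells, 3 were higher and 14 lower in culture (median -0.27), beside 25.8% and 34.2% of all genes. After quantile normalization 1 was higher and 13 lower, after median centring 5 and 11, and with matched spread 2 and 11. On fresh TI replicates 2 and 3 alone, 2 were higher and 10 lower.

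For genes that end receptor signalling, 15 were measured of 26 symbols listed. In fresh TI cells, 8 were higher and 0 lower than in fresh TII cells, with a list median of 0.23. Of all genes, 33.0% were higher and 21.2% lower, with a median of 0.11. The G protein inhibitor gene Rgs4 was higher by 0.64 ± 0.09 and the receptor kinase gene Grk5 by 0.50 ± 0.07 (limma adjusted p = 0.000103 and 6.60e-05). The count stayed at 8 higher after quantile normalization and with matched spread. It was 5 after median centring and 5 on fresh TI replicates 2 and 3 alone. In culture, 2 were higher than in fresh TII cells and 0 lower (median -0.04), beside 972 and 665 of all 4736 genes. The higher ones were Grk5 at 0.53 ± 0.07 and Rgs19 at 0.51 ± 0.11 (limma adjusted p = 8.13e-05 and 0.00253). Against fresh TI cells, 0 were higher and 7 lower in culture (median -0.25), beside 25.8% and 34.2% of all genes. After quantile normalization 7 were lower, with matched spread 8 and after median centring 4.

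**Figure D4:**
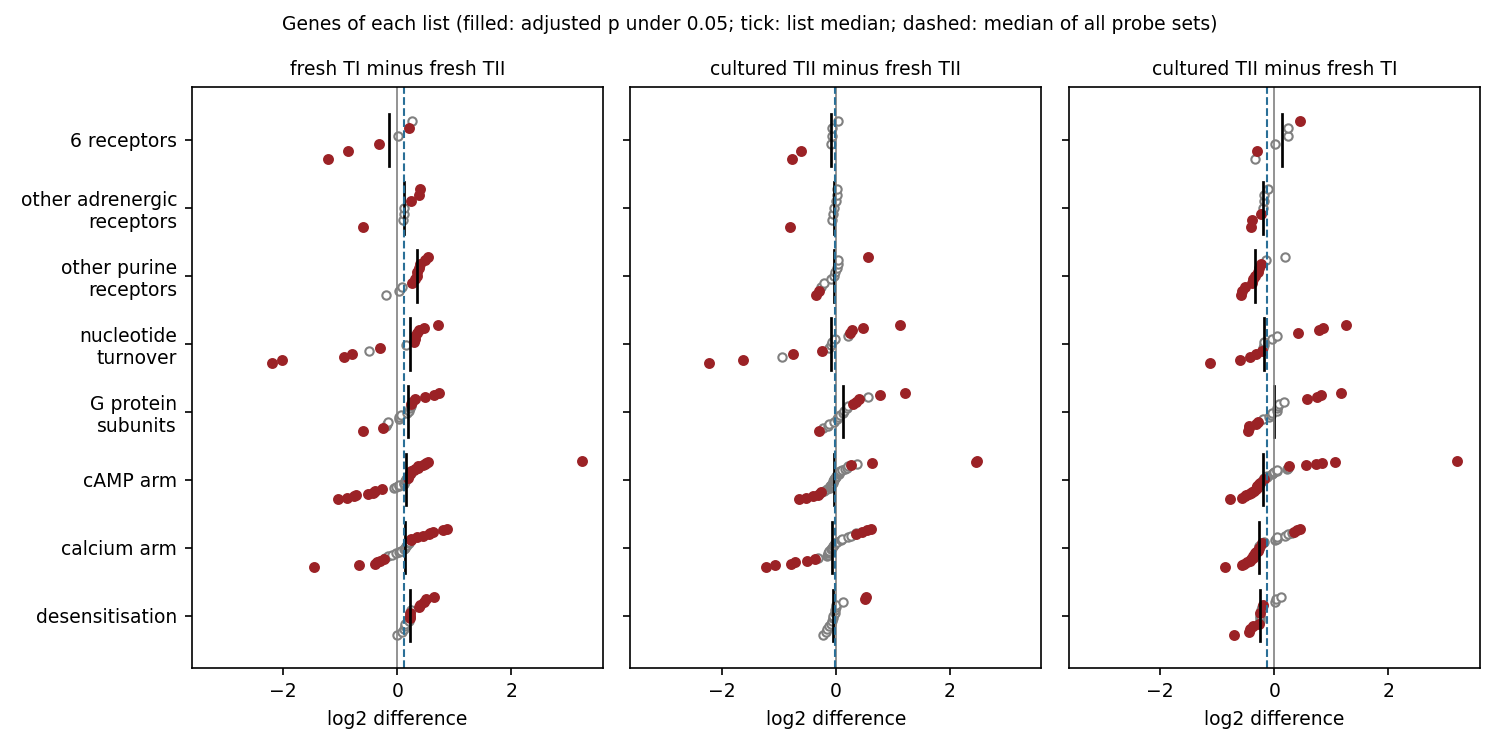
Log2 difference of every measured gene of the 6 receptors and of 7 related lists (rows) in the 3 comparisons named above the panels; filled dots have a limma adjusted p under 0.05, black ticks are list medians and the dashed line is the median of all probe sets. In fresh TI minus fresh TII, most other purine receptors lie right of 0, at a median of 0.34, while P2ry2 and Adora2b lie left.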

How the data were processed

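RNA of the 11 samples was measured on Affymetrix rat arrays. For each array the authors deposited log2 values, 1 for every probe set. The base is read from the values: the highest, 13.16, would be 520737 as a natural logarithm, beyond the 65535 of a 16-bit scanner. Summary, background correction and normalization are not given in the sources used here. Values entered the fit unchanged, after 59 control probe sets of 8799 were dropped. The annotation names 1 gene for 7006 of the others, several for 308 and none for 1426. The brightest probe set on average stood for a gene in the lists.

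One linear model with 3 group means was fitted over all 8740 probe sets with limma 3.58.1 (lmFit, eBayes, two-sided) in R 4.3.3 and was checked on simulated data. Member genes, the 7 pathway and 6 marker lists, and the tests were chosen with earlier results of these data known. Named are the members, up to 4 called genes per list and comparison with the greatest absolute difference, and the 3 genes nearest to each called member; some of these are covered by counts. Precision is limited by 3 or 4 arrays per group. Alternatives were 3 scalings, a filter on dim signal, other variance models and fits, weights per array, a replicate block, a stricter threshold and leaving out each array. Leaving out fresh TI replicates 1 and 4 together was added after seeing the data.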

Additional observations from a re-analysis of the deposited data

Results flagged for a closer look

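For P2ry2, fresh TII replicate 1 (6.82, log2) stood far from the other fresh TII arrays (6.58 to 6.61). The gap to its nearest neighbour was 0.896 of the group's range, above Dixon's 95% critical value for 4 samples. Of 12 groups of 4 arrays examined, 1 exceeded it, and chance alone marks about 1 group in 20. The array is the brightest of the group for which P2ry2 was brightest, and the P2ry2 differences from fresh TII cells passed the test without it.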

How the results depend on the processing

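P2ry2 and Adora2b kept their direction and passed the test in both comparisons with fresh TII cells under every setting in which they were measured, as did Adora2a in cultured TII minus fresh TI. Over all members and comparisons, 276 of 315 alternative values kept direction and side of the threshold, 22 no longer passed, 9 newly passed and 8 changed sign. None of those 8 had an adjusted p under 0.05. They were Adrb1 in fresh TI minus fresh TII with median centring (-0.022), matched spread (-0.012) and fresh TI replicates 2 and 3 alone (-0.0095), P2rx7 in the same comparison on those replicates (-0.026), P2rx7 in cultured minus fresh TII with the replicate block (0.011), and 3 values without cultured TII replicate 1. With 1 array left out, these ran from -0.10 to 0.17 for Adrb1 and from -0.17 to 0.067 for P2rx4 in cultured minus fresh TII, and from -0.12 to 0.15 for Adrb1 in cultured TII minus fresh TI. Of the 6 members, 4 were called in fresh TI minus fresh TII, 2 at an adjusted p under 0.01 and on fresh TI replicates 2 and 3 alone, and 2 to 4 with 1 array left out. In cultured TII minus fresh TI, 2 were called, 1 in the fit on 2 groups and at an adjusted p under 0.01, and 1 to 4 with 1 array left out. Over all 8740 probe sets, leaving out 1 array gave 3944 to 4986 calls in fresh TI minus fresh TII. In cultured TII minus fresh TI it gave 4543 to 5468. The member counts at the stricter threshold, in the 2-group fit and on the 2 replicates have no share of all probe sets beside them. Without the dimmer probe sets, 2671 of 4370 were called in fresh TI minus fresh TII, against 4783 of 8740, and 2993 in cultured TII minus fresh TI, against 5235; fewer were tested, and P2rx4, P2rx7 and Adora2b dropped out. Whether replicate numbers pair the arrays could not be settled. Over all probe sets, the residuals of 10 same-numbered pairs had correlations of -0.20 to 0.28, and those of the 30 other pairs -0.27 to 0.23. These ranges overlap, and residuals about the mean of so few arrays depend on each other. With the replicate block, cultured TII minus fresh TI was 0.39 for P2ry2 (adjusted p = 0.0872) and 0.29 for Adora2b (adjusted p = 0.0486). The cause of these shifts was not tested. Signal over background is not given for these values, so what it limits for the dim P2rx7 probe set is unknown.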
